A study of Mus musculus with 9 samples.

Results

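The Hox cluster genes are the 39 genes whose symbol is Hoxa, Hoxb, Hoxc or Hoxd followed only by a number, and they are 39 of the 21498 gene symbols in the data. None of these symbols was listed more than once. The question put to them is what they report about position along the gut in 3 groups of colorectal samples. Hox genes encode homeodomain transcription factors that lie side by side in 4 clusters on different chromosomes. Within a cluster the genes are numbered by paralog group, and genes with low numbers are used towards the head while genes with high numbers are used towards the tail. In the gut the members of group 13 mark the hindgut and the distal colon, and the pattern persists in the adult epithelium and in the muscle and connective tissue beneath it.

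RNA sequencing was performed on colorectal tissue of male ICR mice that entered the experiment at 5 weeks of age and were killed at the end of week 18, with 3 samples per group and 9 in all. ICR is an outbred stock. Control mice received neither azoxymethane (AOM), a colon carcinogen, nor dextran sulfate sodium (DSS), a colitis-inducing agent, nor any antibody. The AOM/DSS + IgG Ab mice (IgG group) received a single 10 mg/kg dose of AOM and 3 cycles of DSS in the drinking water, the first at 2% for 7 days and the others at 1.5% for 5 days, with a negative control IgG antibody at 1.5 mg/kg every 2 days during the DSS cycles. The AOM/DSS + anti-S100a9 Ab mice (anti-S100a9 group) received the same AOM and DSS with an antibody against S100a9, an inflammatory calcium-binding protein, on the same schedule. The Control samples are labelled as normal colorectal mucosa and both AOM/DSS groups as colorectal adenocarcinoma. The paper instead speaks of colon mucosa for the sequenced anti-S100a9 tissue, and it reports fewer tumors in that group. How much tumor each sample held, and which stretch of the colorectum it came from, is not given in the sources used here. The effects of AOM, DSS and the injected antibody cannot be told apart in the comparison of the IgG group with the Control group.

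Values are read as FPKM, fragments scaled for transcript length and for the size of the library, a unit meant to allow comparison between genes. The FPKM totals ranged from 308377 to 408811 and the relative depth of the samples, read from recurring ratios among low values, spanned 1.33-fold. The absolute depth is unknown. The housekeeping genes Gapdh, Ppia and Rps18 reached only 0.755, 0.974 and 0.391 FPKM at their highest, so a listed value can understate a gene. A Hox gene at 0 is therefore described only as listed at 0. Sums, shares and ranks across genes carry the same limit. S100a9 itself averaged 0.602 FPKM in the Control group, 168 in the IgG group and 9.16 in the anti-S100a9 group. In bulk tissue, fewer cells of a type and less RNA per cell cannot be told apart, and this holds for each value that follows.

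The 4 clusters differed greatly in level. On GRCm38 the Hoxa cluster lies on chromosome 6, and the Hoxb cluster spans chr11:96194316-96368256, the Hoxc cluster chr15:102921103-103036852 and the Hoxd cluster chr2:74668310-74765142. In 9 samples the summed level lay between 65.8 and 116 FPKM for the 11 Hoxa genes, between 159 and 270 FPKM for the 10 Hoxb genes, and between 90.8 and 129.6 FPKM for the 9 Hoxd genes. The 9 Hoxc genes together reached at most 0.253 FPKM. The highest single Hoxc value was 0.174 FPKM, for Hoxc4 in sample 3 of the anti-S100a9 group. Hoxb1, Hoxc12 and Hoxc13 were listed at 0 in every sample. Transcripts of overlapping Hox genes, such as Hoxd3 with Hoxd4 or Hoxa3 with Hoxa4, Hoxa5 and Hoxa6, may have shared reads, and the strandedness of the libraries is not given in the sources used here.

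**Figure D1:**
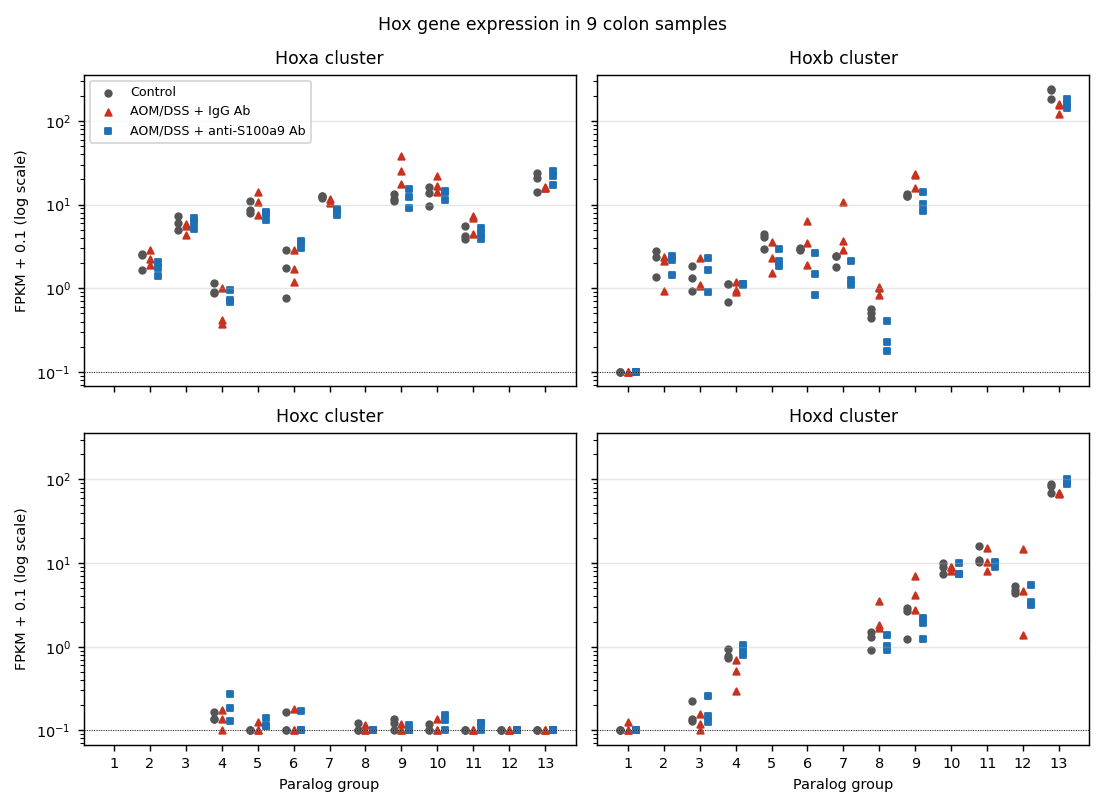
Level of 38 of the 39 Hox genes in each of the 9 samples, as FPKM + 0.1 on a log axis, by cluster (panels) and paralog group (horizontal axis); circles are Control, triangles IgG and squares anti-S100a9 samples, and the dotted line marks a value listed at 0. Over all 9 samples group 13 has the highest mean level in the Hoxa, Hoxb and Hoxd panels, and no Hoxc value exceeds 0.174 FPKM. Within the IgG samples the mean of Hoxa9 (26.9 FPKM) is above that of Hoxa13 (15.8 FPKM).

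The upstream sequences of 3 genes are given here, because the results return to their levels or because the window holds one of the words searched. They are Hoxb8 and Hoxa9, whose IgG values lay above all Control values, and Hoxa13, whose IgG and Control values overlapped. Each window is the 250 bases before the RefSeq start on GRCm38.p6, written 5′ to 3′ on the gene's own strand, and capitals mark a match to one of the words that CDX, posterior HOX or PBX-HOX proteins are known to bind.
Hoxb8: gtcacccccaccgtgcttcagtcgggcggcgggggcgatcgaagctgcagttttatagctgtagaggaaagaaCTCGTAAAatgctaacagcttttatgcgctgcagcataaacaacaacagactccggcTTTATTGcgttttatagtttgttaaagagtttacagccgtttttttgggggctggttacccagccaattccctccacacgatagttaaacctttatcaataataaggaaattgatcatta
Hoxa9: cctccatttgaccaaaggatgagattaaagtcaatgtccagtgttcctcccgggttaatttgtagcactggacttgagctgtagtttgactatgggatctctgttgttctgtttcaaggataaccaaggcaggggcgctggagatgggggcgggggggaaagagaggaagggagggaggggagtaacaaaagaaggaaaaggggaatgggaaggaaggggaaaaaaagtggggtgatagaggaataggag
Hoxa13: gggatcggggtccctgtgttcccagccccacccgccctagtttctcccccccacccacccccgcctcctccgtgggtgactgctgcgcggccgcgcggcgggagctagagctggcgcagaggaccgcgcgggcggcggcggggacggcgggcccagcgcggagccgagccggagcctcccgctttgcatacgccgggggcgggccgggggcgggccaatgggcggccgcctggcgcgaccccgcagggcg
The Hoxb8 window lies at chr11:96281655-96281904 on the plus strand, Hoxa9 at chr6:52227371-52227620 and Hoxa13 at chr6:52260881-52261130, both on the minus strand. The Hoxa9 window lies inside the GENCODE span of that gene, chr6:52223100-52231089, so the RefSeq start used for it is internal to that span. GC content was 44.4% for Hoxb8, 49.6% for Hoxa9 and 80% for Hoxa13. Both strands were searched for CAATAAA and CCATAAA (CDX and posterior HOX), CTCGTAAA (HOX group 13) and TGATTTAT (PBX-HOX). Of 32851 promoter windows, CAATAAA was held by 4.2%, CCATAAA by 2.43%, CTCGTAAA by 0.11% and TGATTTAT by 0.837%. In the 24 windows found for 22 Hox genes, CAATAAA and CTCGTAAA each matched only Hoxb8, CCATAAA matched only Hoxd4 and TGATTTAT matched none. The Hoxb8 window holds TTTATTG, the reverse complement of CAATAAA, and CTCGTAAA. A match describes letters in the window and is not evidence that a protein binds there.

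Group 13 dominated Hox expression in all 9 samples. Hoxb13 (chr11:96194316-96197447), a group 13 factor that marks the distal hindgut, was listed at 181, 235 and 243 FPKM in the Control samples, 121, 160 and 156 in the IgG samples and 162, 183 and 142 in the anti-S100a9 samples. Every IgG value was below every Control value, and the anti-S100a9 values overlapped both groups. Its mean was 219.7 ± 33.8 FPKM in Control, 146 ± 21.4 in IgG and 162 ± 20.5 in anti-S100a9 (SD, n = 3 each). The mean over all samples placed it at or above 98.4% of the 15278 genes tested. Hoxd13 (chr2:74668310-74671599), which patterns the hindgut and the digits, was the next highest gene. Its FPKM were 84.5, 87.9 and 68.1 in Control, 68.3, 67.8 and 69.1 in IgG, and 91.0, 100.3 and 87.0 in anti-S100a9. All anti-S100a9 values lay above all IgG values, while the IgG and Control values overlapped at their lower end. Hoxa13 (chr6:52257694-52260880), the HoxA member of the same group, was listed at 20.9, 23.9 and 14.2 FPKM in Control, 15.5, 15.7 and 16.0 in IgG, and 21.6, 25.4 and 17.3 in anti-S100a9. Here too the IgG values fell within a narrow band that the Control values straddled. The remaining group 12 gene with signal, Hoxd12, was listed at 5.20, 4.64 and 4.33 FPKM in Control, 14.5, 1.29 and 4.60 in IgG, and 3.08, 5.35 and 3.37 in anti-S100a9. Its IgG mean rested on sample 1.

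Expressed as a share of the summed Hox FPKM of the same sample, group 13 held 72.1%, 73.3% and 73.6% in Control and 70.8%, 74.0% and 73.7% in anti-S100a9, but 50.9%, 66.0% and 63.9% in IgG. All 3 IgG samples lay below the other 6. Groups 9 to 12 held 16.1% ± 0.520 in Control, 26.5% ± 6.07 in IgG and 16.8% ± 0.521 in anti-S100a9 (SD, n = 3 each). Not all of their members rose. In the fit described below, the log2 fold change of IgG against Control ranged over their tested genes from −0.19 to 1.10, highest for Hoxa9. A share within a sample does not depend on how the samples were scaled. Groups 9 to 13 together held 89.1% ± 0.326, 86.7% ± 2.13 and 89.7% ± 1.27, in the same order of groups. The summed Hox level was 397 to 473 FPKM in Control, 368 to 402 in IgG and 335 to 418 in anti-S100a9, ranges that overlapped. Sample 1 of the IgG group, with 50.9% from group 13, stood farthest from the others.

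**Figure D2:**
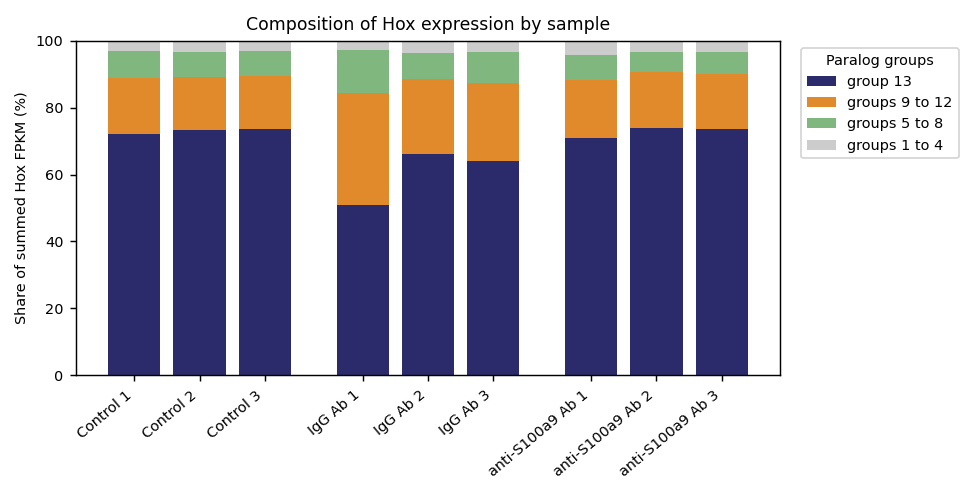
Share of the summed Hox FPKM (%) contributed by group 13, groups 9 to 12, groups 5 to 8 and groups 1 to 4 in each of the 9 samples, as stacked bars to 100%. Group 13 takes 50.9% to 66.0% in the 3 IgG samples and 70.8% to 74.0% in the other 6 samples.

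The group 9 gene was also set against the group 13 gene of its cluster. These genes enter the shares above, so the ratios are not a separate measure. In the Hoxa and Hoxd clusters group 9 rose most of groups 9 to 12 in IgG against Control. The Hoxd genes of groups 10 to 12 changed by log2 fold changes from −0.19 to 0.001, beside −0.22 for Hoxd13. In log2 terms the Hoxa9 to Hoxa13 ratio was −0.84, −0.86 and −0.38 in Control, 1.28, 0.16 and 0.67 in IgG, and −0.81, −0.75 and −0.93 in anti-S100a9. All 3 IgG samples were above all 6 others. For Hoxb9 to Hoxb13 the log2 ratios were −3.85, −4.22 and −4.21 in Control, −2.41, −2.77 and −3.31 in IgG, and −3.51, −4.48 and −3.81 in anti-S100a9, again without overlap. For Hoxd9 to Hoxd13 they were −6.21, −5.11 and −4.62 in Control, −3.32, −4.70 and −4.10 in IgG, and −5.62, −5.59 and −6.26 in anti-S100a9. There the IgG and Control samples overlapped, and IgG stayed above anti-S100a9. These ratios are given as a description and were not tested.

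**Figure D3:**
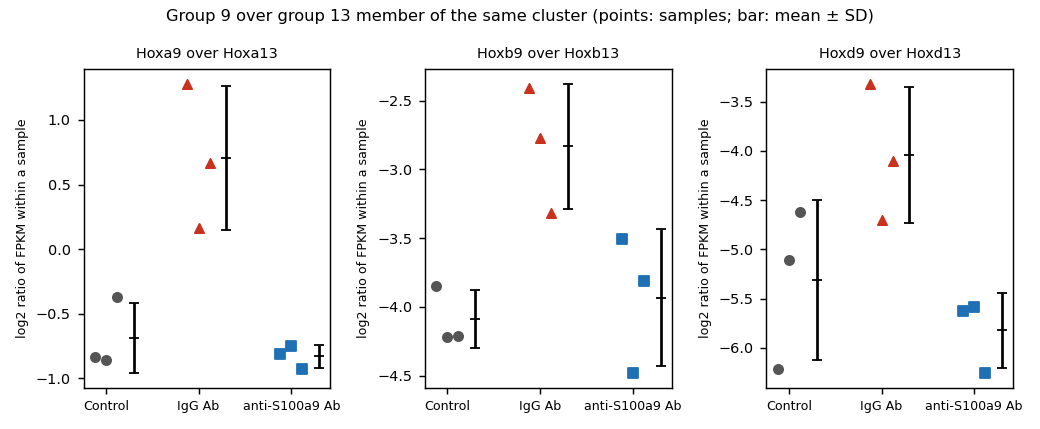
Within-sample log2 ratio of the group 9 to the group 13 gene of the Hoxa, Hoxb and Hoxd clusters; points are samples and the bar is the mean ± SD of the 3 samples. The IgG samples lie above all Control samples for Hoxa9 over Hoxa13 and Hoxb9 over Hoxb13, and overlap Control for Hoxd9 over Hoxd13.

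The comparison of the IgG group with the Control group set AOM/DSS mice given a control antibody against untreated mice. Of the 39 Hox genes, 27 reached 0.1 FPKM in at least 3 samples and were tested with limma on log2(FPKM + 0.1), in 1 fit over 15278 genes with Benjamini-Hochberg adjustment. Fold changes on that scale understate the change of low genes. The 12 genes not tested were Hoxb1, Hoxd1, Hoxd3 and the 9 Hoxc genes. A Hox gene is called where its adjusted p was under 0.05. In this comparison 1 of the 27 was called, Hoxa9, against 11.2% of all genes tested, so the share of Hox genes called was below the background. The background share was 8.18% higher and 3.01% lower. The median log2 fold change of the 27 was 0.07, beside 0.09 over all genes.

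Hoxa9 (chr6:52223100-52231089), a group 9 factor also known for its role in blood progenitors, was listed at 11.7, 13.2 and 10.9 FPKM in Control and 37.7, 17.6 and 25.5 in IgG. The IgG samples were all above the Control samples, and sample 1 was the highest. The increase was 2.15-fold, with a log2 fold change of 1.10 ± 0.28 (SE, n = 3 each) and a limma adjusted p of 0.0389. This call is near the threshold. It ended in 12 of 20 alternative settings, where the adjusted p was at most 0.104, and the log2 fold change kept its sign, from 0.83 to 1.37. It ended without any one of Control samples 1, 2 and 3, IgG samples 1 and 3, and anti-S100a9 samples 1 and 2 (adjusted p from 0.051 to 0.104).

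Every IgG value was also above every Control value for Hoxb7, Hoxb8, Hoxb9 and Hoxd8. With Hoxa9, 5 of 27 did so against 20.7% of all genes tested, a share close to the background. Hoxb7, of the HoxB genes used in the trunk, was listed at 2.30, 1.71 and 2.35 FPKM in Control and 10.6, 2.80 and 3.59 in IgG (log2 fold change 1.14 ± 0.48, limma adjusted p = 0.149). Sample 1 of the IgG group was far above the others for it. Hoxb8 was low in both groups, at 0.399, 0.339 and 0.466 FPKM in Control and 0.917, 0.937 and 0.731 in IgG (log2 fold change 0.94 ± 0.33, limma adjusted p = 0.101). Hoxb9 was listed at 12.6, 12.6 and 13.1 FPKM in Control and 22.8, 23.3 and 15.7 in IgG (log2 fold change 0.66 ± 0.22, limma adjusted p = 0.0892). Hoxd8 was listed at 0.818, 1.41 and 1.20 FPKM in Control and 3.40, 1.57 and 1.74 in IgG (log2 fold change 0.86 ± 0.35, limma adjusted p = 0.137). None of these 4 passed the adjusted threshold.

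Below the Control values in every IgG sample were Hoxb13, Hoxa7 and Hoxd4, 3 of 27 against 10.2% of all genes, which is also close to the background. Hoxb13 had a log2 fold change of −0.59 ± 0.19 (limma adjusted p = 0.0732), Hoxa7 of −0.18 ± 0.12 (adjusted p = 0.346) and Hoxd4 of −0.80 ± 0.34 (adjusted p = 0.152). The study took genes into pathway analysis at a change over 2-fold with p under 0.05. With these thresholds set on the limma p before adjustment, 3 Hox genes were higher, Hoxa9, Hoxb7 and Hoxd9 (log2 fold change of Hoxd9 1.01 ± 0.44, limma adjusted p = 0.163). That is 3 of 27 against 8.43% of all genes (13.6% in either direction). No Hox gene was lower by these thresholds, against 5.19%. At an unadjusted p under 0.05 alone, 8 of 27 passed, against 29.5% of all genes, with 6 higher and 2 lower against 19.4% and 10.1%.

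**Figure D4:**
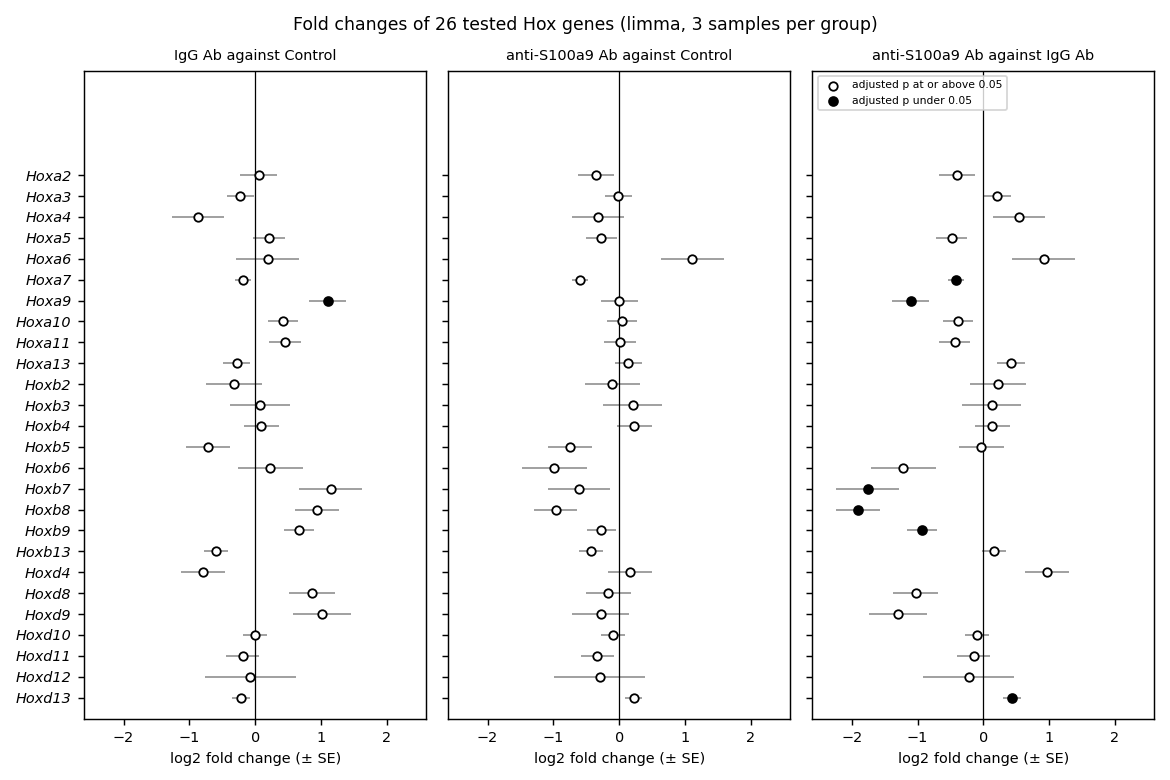
log2 fold change ± SE of 26 of the 27 tested Hox genes in the 3 comparisons (limma, 3 samples per group); filled circles have an adjusted p under 0.05. Hoxa9 is filled against Control, none is filled for the anti-S100a9 group against Control, and 6 are filled for the anti-S100a9 group against IgG.

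The comparison of the anti-S100a9 group with the Control group asked which differences from normal remained under the antibody. No Hox gene was called, with limma adjusted p from 0.29 up, in a comparison where 0.0131% of all genes were called, 0.00655% in each direction. At an unadjusted p under 0.05, 4 of 27 Hox genes passed, against 16% of all genes, 1 higher and 3 lower against 8.87% and 7.1%. Hoxa6 was listed at 2.75, 1.66 and 0.674 FPKM in Control and 3.56, 2.91 and 3.43 in anti-S100a9 (log2 fold change 1.11 ± 0.48, limma adjusted p = 0.309), and it was the 1 Hox gene past the study's thresholds, against 2.28% of all genes in that direction, 0.864% in the other and 3.15% in either. In addition 1 Hox gene lay above and 5 lay below all Control values, against 17.3% and 13.7% of all genes. Hoxa7 was listed at 12.4, 12.1 and 12.4 FPKM in Control and 8.67, 8.28 and 7.43 in anti-S100a9 (log2 fold change −0.60 ± 0.12, limma adjusted p = 0.29). Its 2 groups of values were well apart, yet the adjusted p did not pass. Hoxb8 was listed at 0.306, 0.128 and 0.0794 FPKM in anti-S100a9 (log2 fold change −0.97 ± 0.33, limma adjusted p = 0.301), below its Control range of 0.339 to 0.466. Hoxb13 had a log2 fold change of −0.43 ± 0.19 (limma adjusted p = 0.309). The median of the 27 was −0.17, beside 0.04 over all genes. Under TPM scaling, where 30 Hox genes passed the filter, the Hox median was 0.10 and the median over all genes shifted by 0.20.

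The comparison of the 2 AOM/DSS groups, anti-S100a9 against IgG, set the 2 antibodies against each other under the same AOM and DSS. In it, the antibody cannot be told apart from the amount of tumor or the stretch of colorectum sampled. Here 6 of 27 Hox genes were called, 5 lower and 1 higher, against 21.1% of all genes tested (14.4% lower and 6.72% higher), so the total was near the background share. The 5 that fell were Hoxa7, Hoxa9, Hoxb7, Hoxb8 and Hoxb9, all from groups 7 to 9, and Hoxd13 rose. The same IgG samples enter this comparison and the comparison with Control, so the opposite directions of Hoxa9, Hoxb7, Hoxb8 and Hoxb9 in them are not independent.

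Hoxa9 was listed at 12.3, 15.1 and 9.07 FPKM in anti-S100a9, all below the IgG values, with a log2 fold change of −1.10 ± 0.28 (limma adjusted p = 0.0284). Hoxb8 was the member with the largest fall, to a log2 fold change of −1.91 ± 0.33 (limma adjusted p = 0.0106), in a gene under 1 FPKM throughout. Its call held in all but 1 of 19 alternative settings, without anti-S100a9 sample 2 (limma adjusted p = 0.0505), and its log2 fold change ranged from −2.46 to −0.67 with the pseudocount. Hoxb7 was listed at 2.04, 1.17 and 0.995 FPKM in anti-S100a9 (log2 fold change −1.76 ± 0.48, limma adjusted p = 0.0339). Hoxb9 was listed at 14.2, 8.20 and 10.1 FPKM (log2 fold change −0.93 ± 0.22, limma adjusted p = 0.0238). Hoxa7 was 8.67, 8.28 and 7.43 FPKM against 10.3, 11.4 and 10.8 in IgG (log2 fold change −0.41 ± 0.12, limma adjusted p = 0.0457), a call lost in 14 of 20 alternative settings. Hoxd13, the only called gene of group 13, had a log2 fold change of 0.44 ± 0.13 (limma adjusted p = 0.0486), which was lost in 10 of 20 settings. The calls of Hoxa9 and Hoxb7 were each lost in 7 of 20 settings and that of Hoxb9 in 4. The Hoxa9 and Hoxb7 calls ended without IgG sample 1 or 3 or any 1 anti-S100a9 sample, and the Hoxb9 call without IgG sample 1 or anti-S100a9 sample 2 or 3 (limma adjusted p at most 0.104). The count of 6 fell to 1 without IgG sample 1, 2 without IgG sample 3, 2 without anti-S100a9 sample 1, 0 without anti-S100a9 sample 2 and 1 without anti-S100a9 sample 3. The number of all genes called fell as well, to 516 without anti-S100a9 sample 2.

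Under the study's thresholds, 6 Hox genes were lower in anti-S100a9 than in IgG, Hoxa9, Hoxb6, Hoxb7, Hoxb8, Hoxd8 and Hoxd9, against 8.38% of all genes (16% in either direction). None was higher, against 7.64%. Hoxb6 was listed at 2.84, 2.95 and 2.80 FPKM in Control, 6.23, 1.82 and 3.34 in IgG and 2.57, 1.39 and 0.733 in anti-S100a9. Its IgG and anti-S100a9 values overlapped, and its limma adjusted p was 0.105. Hoxd9 was listed at 1.14, 2.55 and 2.78 FPKM in Control, 6.85, 2.62 and 4.04 in IgG and 1.85, 2.09 and 1.14 in anti-S100a9 (anti-S100a9 against IgG, limma adjusted p = 0.0642). Hoxd8 had a limma adjusted p of 0.0633. All anti-S100a9 values were below all IgG values for 7 Hox genes and above them for 4, against 28.5% and 18.5% of all genes. In this comparison groups 1 to 4 had a median log2 fold change of 0.17 over 8 genes and groups 5 to 8 of −0.75 over 8 genes. Groups 9 to 13 had a median of −0.22 over 11 genes, group 13 alone of 0.42 over 3 genes and all genes of −0.06. For groups 5 to 8 the median was 0.22 in IgG against Control, with 6 of 8 genes higher. It was −0.60 in anti-S100a9 against Control, with 1 of 8 higher. For group 13 these 2 medians were −0.28 and 0.14.

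The Hox clusters sit among other genes, and 4 of 14 listed neighbours were higher and 2 lower in IgG than in Control, beside 8.18% and 3.01% of all genes tested. Evx1, a homeobox gene 52.6 kb beyond Hoxa13, changed most. It was listed at 1.51, 0.602 and 0.876 FPKM in Control, 39.3, 15.1 and 12.2 in IgG, and 2.09, 1.22 and 0.811 in anti-S100a9. Its IgG values stood above all others, with a log2 fold change of 4.24 ± 0.51 against Control (limma adjusted p = 0.00213) and of −3.82 ± 0.51 for anti-S100a9 against IgG (adjusted p = 0.00474). Evx2, 8.8 kb beyond Hoxd13, did not pass (log2 fold change −0.08 ± 0.29, limma adjusted p = 0.878). Snx10 and Skap2, at the other side of the Hoxa cluster, rose in IgG by log2 fold changes of 1.58 and 0.67 (limma adjusted p of 0.00174 and 0.03). Ttll6, 28.9 kb from Hoxb13, fell, from 8.15, 13.9 and 12.0 FPKM in Control to 1.24, 3.59 and 4.31 in IgG (log2 fold change −1.997 ± 0.411, limma adjusted p = 0.0193). Hnrnpa1 and Hibadh changed by log2 fold changes of 0.70 and −0.46 (limma adjusted p of 0.0131 and 0.0485).

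**Figure D5:**
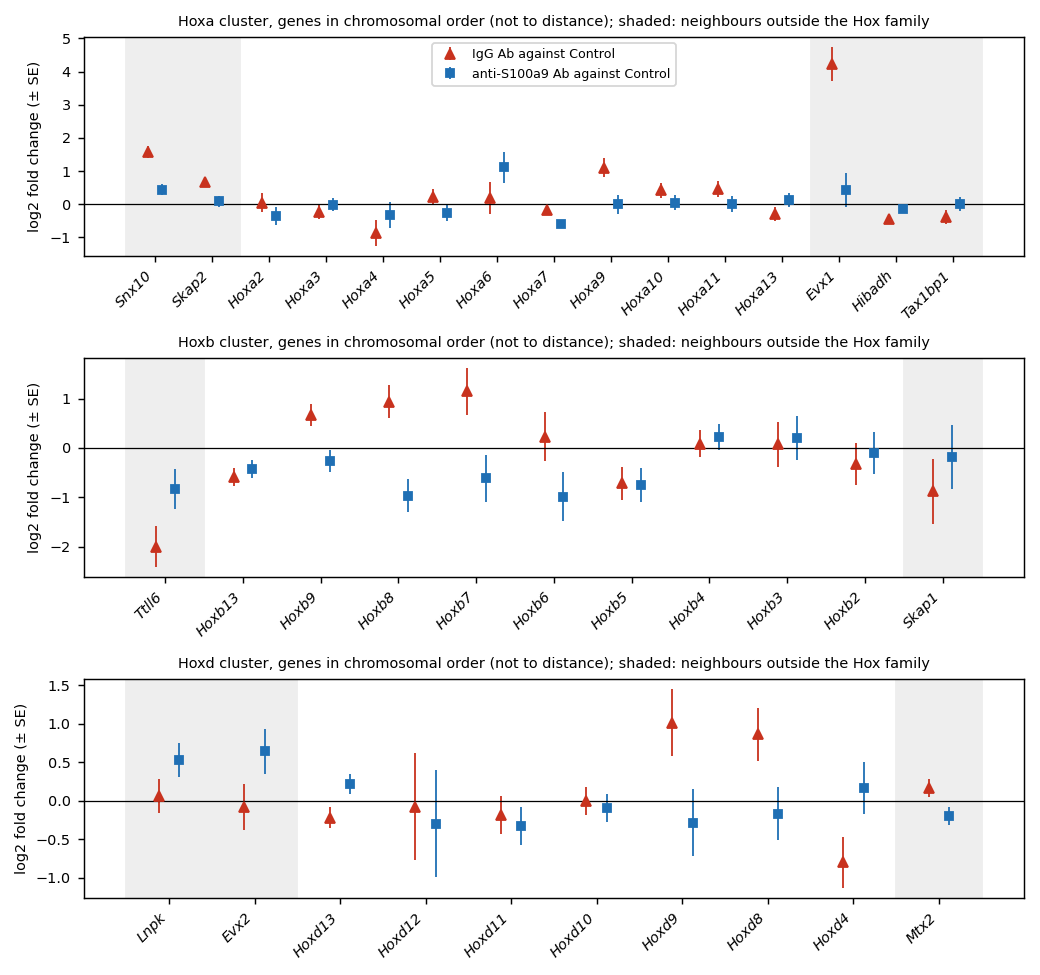
log2 fold change ± SE of tested genes of the Hoxa, Hoxb and Hoxd clusters and their neighbours in chromosomal order, without distances; red is IgG against Control, blue anti-S100a9 against Control, and shading marks neighbours. Evx1 has the largest change in the Hoxa panel, at 4.24 for IgG against Control.

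The ParaHox genes and the Hox cofactors, which work beside the Hox proteins, were read as lists of their own. Cdx1, a ParaHox factor of the intestinal epithelium, was listed at 202, 249 and 319 FPKM in Control, 70.0, 184 and 179 in IgG and 153, 171 and 138 in anti-S100a9 (IgG against Control log2 fold change −0.93 ± 0.36, limma adjusted p = 0.123). Cdx2 was listed at 24.5, 21.7 and 25.2 FPKM in Control, 8.14, 25.2 and 17.4 in IgG and 14.4, 16.2 and 21.9 in anti-S100a9, where sample 1 of IgG was the lowest (limma adjusted p = 0.275 for IgG against Control). Pdx1, best known in the duodenum and pancreas, was listed at 0.160, 0.492 and 0.711 FPKM in Control and 2.79, 1.33 and 2.11 in IgG (log2 fold change 2.06 ± 0.47, limma adjusted p = 0.0261). None of 9 cofactor genes was called for IgG against Control. Against IgG, 2 of 9 were higher in anti-S100a9, Meis1 by a log2 fold change of 1.46 and Pbx3 by 0.87 (limma adjusted p of 0.0307 and 0.0361). Retinoic acid sets Hox boundaries in the embryo, and of 14 genes of its synthesis and response tested, 6 were higher and 1 lower in IgG than in Control, beside 8.18% and 3.01% of all genes. In anti-S100a9 against IgG 3 were higher and 5 lower, beside 6.72% and 14.4%. Rdh10, which makes retinaldehyde, rose by a log2 fold change of 2.62 in IgG (limma adjusted p = 0.00268). Of the enzymes that make retinoic acid from it, Aldh1a3 rose by 2.51 and Aldh1a1 fell by 2.50 on the log2 scale (limma adjusted p of 0.00907 and 0.00266). Of 16 regulators of Hox chromatin, 2 were higher in IgG than in Control, Phc2 and the H3K27 methyltransferase Ezh2 (log2 fold changes 0.75 and 0.99, limma adjusted p of 0.0342 and 0.0194).

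Lists of gut region factors and of cell type markers were read in the same fit, where 8.18% of all genes were higher and 3.01% lower in IgG than in Control. Gata4, an upper-gut factor, reached at most 0.0885 FPKM in any sample. Of 11 gut region factors tested, 2 were called in IgG against Control, Onecut2 and Gata5. They were higher in IgG by log2 fold changes of 4.44 and 4.35 (limma adjusted p of 0.000694 and 0.0012). Of 15 colon epithelium markers, summed at 7073 to 8701 FPKM in Control, 2751 to 5780 in IgG and 4755 to 6096 in anti-S100a9, 5 were lower and 1 higher in IgG than in Control. Epcam, on all epithelial cells, was listed at 637, 772 and 786 FPKM in Control and 691, 723 and 890.1 in IgG. Of 10 squamous epithelium markers tested, 5 were higher in IgG than in Control, Krt14, Krt15, Krt13, Krt4 and Dsg3. Krt14 averaged 1.14 FPKM in Control, 20.1 in IgG and 1.50 in anti-S100a9 (IgG against Control, limma adjusted p = 0.0133). Krt5 and Trp63 of the same list reached at most 0.468 and 0.0223 FPKM in any sample. The 14 listed genes summed to 68.5 to 99.4 FPKM in Control, 109 to 165 in IgG and 67.1 to 78.7 in anti-S100a9. Most of that was Sfn, at 64.7, 65.5 and 93.4 FPKM in Control and 65.8, 94.1 and 126 in IgG, which was not called (limma adjusted p = 0.403). Of 10 fibroblast markers, 5 were higher and 1 lower, with sums of 490 to 572, 659.8 to 2198 and 628 to 807 FPKM. Of 7 adipocyte markers tested, 5 were lower in IgG, with sums of 81.5 to 285, 11.9 to 48.9 and 21.3 to 39.2 FPKM. Of 10 smooth muscle markers none was called for IgG against Control, although the IgG samples ranged from 536.5 to 3330 FPKM beside 1858 to 2948 in Control and 2318 to 4197 in anti-S100a9. Of the small intestine list 1 of 8 genes was higher and 1 lower, of the leukocyte list 1 of 12 was lower, and of the enteric neuron and endothelium lists none was called. In anti-S100a9 against IgG, 4 colon epithelium, 3 smooth muscle, 3 enteric neuron and 2 leukocyte markers were higher, and 6 squamous markers were lower. There 1 fibroblast marker was higher and 3 lower, and 1 gut region factor was higher and 2 lower. Of all genes 6.72% were higher and 14.4% lower in that comparison. The part these cell-type differences played in the Hox values was not tested. In anti-S100a9 against Control no gene of any list was called.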

How the data were processed

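RNA was extracted from colorectal tissue of mice, and 9 samples were sequenced. The authors deposited 1 table of values per sample, in FPKM, and the submitters' processing notes name TopHat, Cufflinks, HTSeq and DESeq with build GRCm38, with no versions. The unit FPKM was read from the deposited values and those notes, and no counts were used, so no count test was possible. Here, values of repeated symbols were summed, genes that reached 0.1 FPKM in 3 or more samples were kept, and log2(FPKM + 0.1) was fitted with limma 3.58.1 (R 4.3.3; moderated test with intensity trend, all 9 samples in 1 fit, 3 contrasts, Benjamini-Hochberg adjustment over 15278 genes). The labels call the samples biological replicates, without saying more, and p-values measure the spread between these samples only. Nothing was imputed.

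Sequence windows came from RefSeq promoters on GRCm38.p6, and gene positions from GENCODE on GRCm38. The Hox genes, the context lists and the tests were chosen with earlier results of these data known. Named Hox genes were those of groups 12 and 13, those called or past the study's thresholds in any comparison, and the highest of each cluster. Hoxd4, Evx2, Aldh1a3, Epcam, Krt4, Krt13 and Krt15 were named after their values were seen. Prac1 and the Hox long non-coding RNAs looked for were not among the gene symbols in the data, so they were not analysed here. Single values of 1 Hox gene and of 1 gene of the context lists are not reported here, while the counts and sums include them. Alternatives covered the pseudocount, the filter, 3 scalings, the samples in the fit, the intensity trend, the replicate number as a block, the handling of repeated symbols and leaving out each sample.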

Additional observations from a re-analysis of the deposited data

How the results depend on the processing

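Each comparison was refitted in 20 alternative settings, and of the fold changes of 81 gene and comparison pairs no call turned its direction. Of the 1608 refitted values, 1545 kept their side of the threshold, 55 lost a call and 8 gained one. In IgG against Control the Hox count of 1 became 2 with a pseudocount of 1, and 0 with median-of-ratios scaling, quantile normalization, only the 2 groups in the fit, no intensity trend or the replicate block, and it lay between 0 and 1 when a sample was left out. Without IgG sample 3 the 1 call was Hoxa4, which was lower, and Hoxa9 was not called. In anti-S100a9 against IgG the count of 6 became 1 with TPM scaling and 3 with only the 2 groups, and lay between 0 and 9 when a sample was left out. In anti-S100a9 against Control it was 0 in every setting.

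Over all genes, the count for IgG against Control was 603 with only the 2 groups and 591 to 2167 when a sample was left out, beside 1710. For anti-S100a9 against IgG it was 2082 with TPM scaling and 516 to 4114 when a sample was left out, beside 3219. For anti-S100a9 against Control it was 4 with a pseudocount of 0.01, 5 with TPM scaling, 1 with no filter or no intensity trend, 0 with only the 2 groups and 0 to 5 when a sample was left out, beside 2. TPM scaling shifted the median over all genes by 0.20 in anti-S100a9 against Control and 0.11 in anti-S100a9 against IgG, and moved the Hox medians there to 0.096 and −0.0076. With TPM scaling the filter and the pseudocount were applied after rescaling, so 30 Hox genes and 16067 genes in all were tested. Median-of-ratios and quantile scaling shifted it by −0.10 and −0.12 in IgG against Control. The Hox median there ranged from −0.08 to 0.26 over all settings and so had no stable sign.

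Leaving out Hoxb13 put the share of group 13 at 45.7%, 36.1% and 52.6% in Control, IgG and anti-S100a9, and of groups 9 to 13 at 78.0%, 78.6% and 82.0%. The mean of log2(FPKM + 0.1) over the class was 3.76, 3.48 and 3.74 for group 13 and 1.58, 1.72 and 1.51 for groups 9 to 13. Of the 9 same-number pairs of deviations, 5 correlated above 0.1 (from −0.187 to 0.249). Pairs with different numbers ranged from −0.267 to 0.19. Whether the replicate numbers pair the samples was not tested. Under the replicate block the adjusted p of Hoxa9 in IgG against Control was 0.0524, and that of Hoxa7 in anti-S100a9 against IgG 0.0609. With 3 samples per group and an unknown absolute depth, the precision of genes under 1 FPKM could not be set from counts.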

Other observations

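In IgG sample 1, which had the lowest share of group 13 (50.9%), the colon epithelium factors Cdx1 and Cdx2 were also at their lowest, at 70.0 and 8.14 FPKM, the summed colon epithelium markers at 2751 FPKM and the summed smooth muscle markers at 536.5 FPKM. It was also the sample in which Hoxa9 (37.7 FPKM), Hoxb7 (10.6 FPKM) and Evx1 (39.3 FPKM) were highest among the 9.

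Recurring ratios among the low values tied the libraries unevenly. The number of genes within 0.02 of the commonest log2 ratio of a pair was 130 to 168 among the IgG samples, 90 to 207 among the anti-S100a9 samples and 56 to 96 among the Control samples. Between groups it was 160 to 163 for Control sample 1 with the anti-S100a9 samples and 41 to 48 with the IgG samples. For Control sample 3 it was 87 to 161 with the IgG samples and 37 to 61 with the anti-S100a9 samples. For Control sample 2 it was 60 to 125 with the anti-S100a9 samples and 62 to 82 with the IgG samples. It was 36 to 54 for IgG with anti-S100a9 samples. In Control sample 3, Hoxa9 (10.9 FPKM) and Hoxb13 (243 FPKM) lay nearer the other Control samples, while Hoxd13 (68.1 FPKM) and Hoxa13 (14.2 FPKM) lay nearer the IgG samples. The part of these ties in the Hox values was not tested.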
